A study of Rattus norvegicus with 12 samples.

Results

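Protein phosphatase subunit genes are the genes whose platform symbol begins with Ppp1 to Ppp6 followed by c, for a catalytic subunit, or r, for a regulatory subunit. Each was read from probe sets with 1 gene symbol, the brightest probe set standing for a gene that had more than 1. The rule used names and brightness over all arrays and no difference between groups. It gave 63 of the 14506 genes measured, 12 with a catalytic and 51 with a regulatory symbol. They comprise 34 genes of protein phosphatase 1 (PP1), 14 of PP2A, 5 of calcineurin, 5 of PP4, 1 of PP5 and 4 of PP6.

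The serine/threonine phosphatases of this family combine a few catalytic subunits with many regulatory subunits, which choose the substrate, place the enzyme in the cell or inhibit it. PP2A works as a complex of a catalytic subunit, a scaffold and an exchangeable B subunit, whereas PP1 pairs its catalytic subunit with targeting proteins and inhibitors. In cardiac muscle PP1 and PP2A oppose the kinases that act on calcium handling and contractile proteins, and calcineurin, switched on by calcium and calmodulin, activates the NFAT transcription factors of hypertrophic growth.

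The cultures were primary neonatal cardiac myocytes from Sprague Dawley rats. All 4 groups shared a culture with bromodeoxyuridine, which holds back fibroblasts, an siRNA transfection and 48 h without serum. The NS groups carried a non-silencing siRNA and the p300 siRNA groups (p300kd in the labels) an siRNA against p300, the acetyltransferase encoded by Ep300. Cells of each kind were taken after 0 h or 8 h in 1 µM doxorubicin (Dox), an anthracycline that damages DNA and is toxic to the heart. The labels name no group kept for 8 h without Dox. A change with Dox here means 8 h minus 0 h, and it cannot be told apart from a change with time in culture. Each group had 3 arrays, 1 from each of 3 experiments, so that NS 0 h, NS 8 h, p300 siRNA 0 h and p300 siRNA 8 h were compared on 12 arrays. Myocytes are stated at over 90% of the cultured cells, so that other cells were present. The design asks which genes respond to Dox, which depend on p300, and whether p300 siRNA alters the response to Dox.

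Values are log2 intensity, changes are differences of log2 group means, and p is from limma, adjusted over all 14506 genes. A gene is called at an adjusted p under 0.05. Ep300 averaged 11.11 in NS and 10.16 in p300 siRNA cells at 0 h, and 10.77 and 9.85 at 8 h, a fall of 0.93 over both times (SE 0.0894, limma adjusted p = 0.00212). Without experiment 2 or 3 this fall was not called (limma adjusted p = 0.348 and 0.168), and on the arrays the knockdown was partial. All 10 myocyte markers were above the median gene, and their summed level lay between 16.37 and 16.62 on every array. Of the 7 endothelial markers measured, 0 were above the median gene. Fibroblast markers (15.09 to 15.49) and smooth muscle and pericyte markers (15.11 to 15.56) were present on all arrays. In bulk RNA of this kind fewer cells of a type and less RNA per cell cannot be told apart.

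The promoters of 3 PP2A genes are shown: Ppp2r2c, the B subunit gene that rose with Dox, and Ppp2r2d and Ppp2ca, a B subunit gene and a catalytic gene that fell and whose windows were chosen because they hold the same motif. Ppp2r2b, which fell more than Ppp2r2d, is not shown; its window has a GC content of 46.4%, 2 CpG sites and neither of the motifs in capitals here. Each is the 250 bases upstream of the RefSeq gene start in GRCr8, 5′ to 3′ on the gene's strand. Capitals mark GGGCGG (a GC box) and TGACGTCA (a cAMP response element, CRE), searched on both strands. The Ppp2r2c window is chr14:78156213-78156462 on the minus strand, that of Ppp2r2d is chr1:203095332-203095581 on the plus strand, and that of Ppp2ca is chr10:36858787-36859036 on the plus strand.
Ppp2r2c: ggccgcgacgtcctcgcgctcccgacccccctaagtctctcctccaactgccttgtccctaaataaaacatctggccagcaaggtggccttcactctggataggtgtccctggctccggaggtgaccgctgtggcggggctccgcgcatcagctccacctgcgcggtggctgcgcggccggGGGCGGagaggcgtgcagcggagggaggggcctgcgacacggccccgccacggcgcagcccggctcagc
Ppp2r2d: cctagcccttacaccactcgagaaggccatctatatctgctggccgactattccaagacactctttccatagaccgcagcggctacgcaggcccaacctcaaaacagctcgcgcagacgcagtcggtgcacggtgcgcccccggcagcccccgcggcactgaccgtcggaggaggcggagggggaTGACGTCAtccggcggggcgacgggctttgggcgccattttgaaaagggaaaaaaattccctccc
Ppp2ca: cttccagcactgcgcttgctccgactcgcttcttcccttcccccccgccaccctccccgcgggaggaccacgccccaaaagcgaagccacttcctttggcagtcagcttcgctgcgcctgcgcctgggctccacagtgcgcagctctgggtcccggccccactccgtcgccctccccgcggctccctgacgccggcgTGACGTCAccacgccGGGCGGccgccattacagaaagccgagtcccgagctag
The Ppp2r2c window held a GC box and had a GC content of 70.8%, with 25 CpG sites. The Ppp2ca window, of a gene that fell, also held a GC box, with a GC content of 70.4% and 27 CpG sites. A CRE stood from 58 to 65 bases upstream of the Ppp2r2d start and from 46 to 53 bases upstream of the Ppp2ca start. Of the 63 genes, 51 were matched in the RefSeq table. Ppp2r2a, which fell more than Ppp2r2d, was not matched. A CRE was found in 3 of the 51 matched windows (5.88%), against 1.70% of 27456 promoters. The third gene was Ppp1r15a, which was not called with Dox. The GC box was in 26 of 51 (51.0%) against 32.4%, CCAAT in 18 (35.3%) against 34.3%, and TATAAA in 6 (11.8%) against 13.1%. The AP-1 letters TGACTCA were in 0 of 51, against 3.98% of all promoters, and the E-box CACGTG in 2 (3.92%) against 5.79%. Median GC content was 72.2% in the 6 matched genes that rose with Dox in NS cells, 65.6% in the 17 that fell, 62.0% in the 28 not called and 52.0% over all promoters. These matches describe letters, not sites that were shown to be bound.

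Members called with Dox numbered 30 of 63 in NS cells and 32 with p300 siRNA, and falls outnumbered rises. In NS cells 9 of 63 rose and 21 fell (47.6% called), against 27.5% of all genes called, 11.1% up and 16.4% down. With p300 siRNA 9 rose and 23 fell (50.8%), against 31.4% of all genes, 13.9% up and 17.5% down. The median change of the 63 was -0.17 in NS and -0.18 in p300 siRNA cells, against 0.04 over all genes in each. Arrays of the 2 times did not overlap for 41 members in NS cells (65.1%, against 41.3% of all genes) and for 40 with p300 siRNA (63.5%, against 43.2%). Of the members, 27 were called in both kinds of cell, each in the same direction. The share of all genes called in both was not counted. With the experiment as a block the counts were 11 up and 28 down in NS cells, against 43.5% of all genes called (21.6% up, 21.9% down), and 12 up and 29 down with p300 siRNA, against 45.8% (22.9% and 22.8%). The NS and p300 siRNA comparisons have no arrays in common, but they are not independent. Each gene's variance was estimated from the arrays of all groups together. Both kinds of cell also came from the same experiments, and arrays of an experiment deviated together from their group means. The changes ran from -1.30 for Ppp2r2b to 2.05 for Ppp2r2c in NS cells.

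Calls depended on the scaling and on which experiments were included. All 30 calls in NS cells and all 32 with p300 siRNA had the same sign in each of the 3 experiments. Centring each array on its median moved the median change of all genes in NS cells from 0.04 to 0.14, and the split of members to 11 up and 19 down in NS and 14 up and 17 down in p300 siRNA cells. Over all genes the same step turned 1617 up and 2375 down into 3800 and 1832 in NS cells, and 2017 and 2543 into 4344 and 1991 with p300 siRNA. Leaving out experiment 2 left 4 rises and 12 falls among the members in NS cells and 6 and 11 with p300 siRNA. Without experiment 3 there were 4 and 11, and 3 and 12. These fits also had fewer arrays, and whether smaller changes or lower precision ended the calls was not tested. Shares of all genes in the fits that left out an array or an experiment were not counted. In each kind of cell 13 member calls held in all 15 of these fits, and 11 genes did so in both. These 11, which also held in the other 7 settings, were Ppp1cc, Ppp1r2, Ppp1r3a, Ppp1r3b, Ppp2ca, Ppp2r2a, Ppp2r2b, Ppp2r2c, Ppp2r2d, Ppp4r3a and Ppp6r3.

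Other settings also ended calls, of members with changes from 0.20 to 0.58 in size. The further quantile normalization ended those of Ppp1ca, Ppp1cb, Ppp1r42 and Ppp6r1 in NS cells (limma adjusted p from 0.0515 to 0.174) and of Ppp1ca, Ppp1cb, Ppp1r12b, Ppp1r13b, Ppp1r14b, Ppp1r16a, Ppp1r9b and Ppp4r3b with p300 siRNA (0.0595 to 0.217). Fitting the 2 groups alone ended those of Ppp1ca, Ppp1cb, Ppp1r42, Ppp3r1, Ppp4r1 and Ppp6r1 in NS cells (0.0541 to 0.0942) and of Ppp1ca, Ppp1r11, Ppp1r14b, Ppp1r27, Ppp1r3d and Ppp4r3b with p300 siRNA (0.0513 to 0.0979). Without the variance trend Ppp1ca in each (0.0565) and Ppp1r42 in NS cells (0.0660) were not called.

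**Figure D1:**
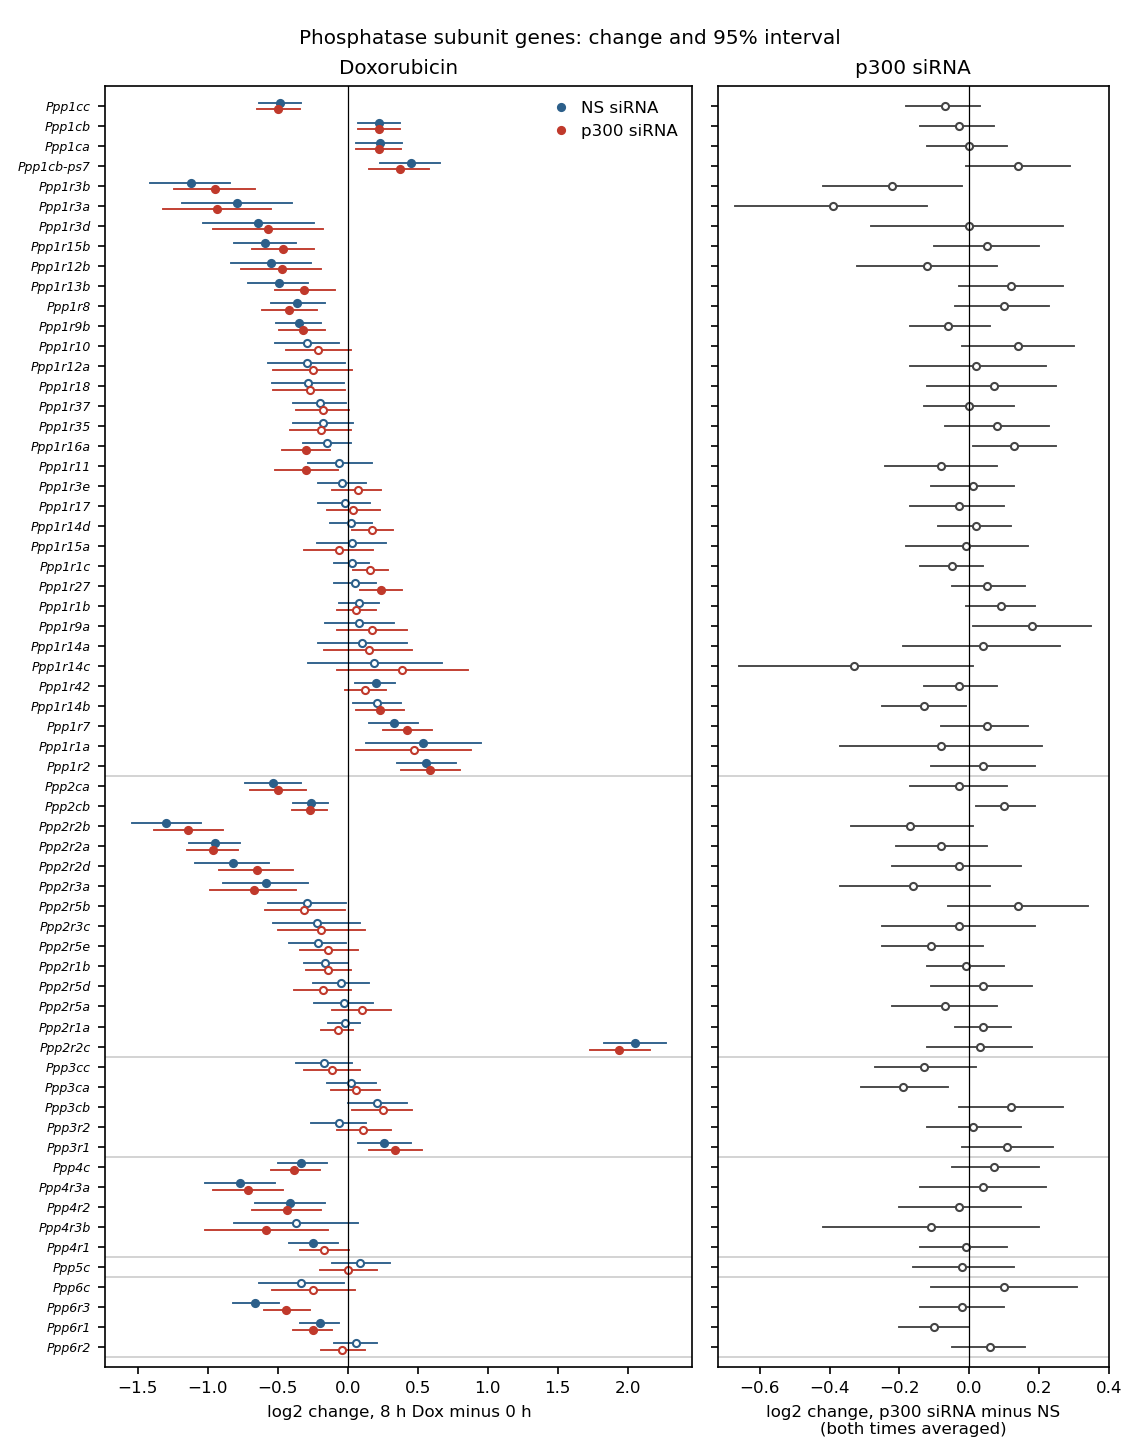
Log2 change of each of the 63 genes, by enzyme (PP1, PP2A, calcineurin, PP4, PP5, PP6 from top to bottom, separated by grey lines), with its 95% interval from limma. Left, 8 h Dox minus 0 h in NS (blue) and p300 siRNA (red) cells, where filled points are called; right, p300 siRNA minus NS averaged over both times, where 0 genes are called. Ppp2r2c stands alone at 2.05 and 1.94, and the lowest value on the left is that of Ppp2r2b at -1.30.

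Among the 12 genes with a catalytic symbol, 3 rose and 4 fell with Dox, with the same counts in NS and p300 siRNA cells. Regulatory genes gave 6 rises and 17 falls of 51 in NS cells, and 6 and 19 with p300 siRNA. Beside both classes, 11.1% of all genes rose and 16.4% fell in NS cells, and 13.9% and 17.5% with p300 siRNA. The median change in NS cells was -0.07 over the 12 catalytic genes, -0.17 over the 11 without the pseudogene Ppp1cb-ps7, and -0.18 over the regulatory genes. Centring turned the median of the 12 to 0.03, and those of the 11 and of the regulatory genes to -0.07 each, against 0.14 over all genes. The difference between the classes was not tested. In NS cells catalytic changes spanned -0.53 to 0.45, or -0.53 to 0.23 with 2 rises without the pseudogene, and those of regulatory genes -1.30 to 2.05. Ppp1cb-ps7 read 5.21 to 5.97 on the arrays, among the dimmest 25% of genes, and can share sequence with Ppp1cb. Its change was 0.45 (limma adjusted p = 0.00473) in NS cells and 0.37 (0.0124) with p300 siRNA, and the latter was not called without experiment 1 or 3 (up to 0.0750).

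The 3 PP1 catalytic genes encode closely related isoforms, and they changed unequally. Ppp1cc, the gamma isoform, read 12.46, 12.64 and 12.48 in experiments 1 to 3 in untreated NS cells and 11.95, 12.12 and 12.07 after Dox. With p300 siRNA it read 12.39, 12.51 and 12.48 before and 11.89, 12.05 and 11.95 after Dox. All 6 Dox arrays lay below all 6 untreated arrays. The fall of Ppp1cc was 0.48 in NS cells (limma adjusted p = 3.27e-04) and 0.50 with p300 siRNA (2.15e-04). Ppp1ca (alpha) rose by 0.23 (0.0430) and 0.22 (0.0427), and Ppp1cb (beta) by 0.22 in each (0.0301 and 0.0290). The Ppp1ca calls were lost in 11 and 9 of the 15 leave-out fits, where the adjusted p reached 0.173 and 0.351, and those of Ppp1cb in 7 and 6 (0.266 and 0.191). A further quantile normalization ended all 4 calls, with changes from 0.13 to 0.15. The change of Ppp1ca exceeded that of Ppp1cc by 0.70 in NS cells, from 0.66 to 0.77 over the 3 experiments, and by 0.71 (0.62 to 0.81) with p300 siRNA.

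Both PP2A catalytic genes fell. Ppp2ca read 12.64, 12.95 and 12.76 in untreated NS cells and 12.13, 12.42 and 12.21 after Dox, and 12.63, 12.79 and 12.78 against 12.15, 12.29 and 12.28 with p300 siRNA. No array of a Dox group reached its untreated group, nor did experiments change places: experiment 2 was the highest in all 4 groups. The fall was 0.53 (limma adjusted p = 9.95e-04) in NS and 0.50 (0.00121) in p300 siRNA cells, and its call held in all 15 leave-out fits. A second Ppp2ca probe set had the same values on all 12 arrays and adds no evidence. Ppp2cb, the beta isoform, fell by 0.26 (0.00432) and 0.27 (0.00307). Without experiment 2 or 3 its calls were lost, with an adjusted p of up to 0.0899 and 0.0681.

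Of the calcineurin catalytic genes, 0 of 3 were called with Dox, against 27.5% of all genes in NS cells and 31.4% with p300 siRNA. Ppp3ca changed by 0.02 and 0.06 and Ppp3cc by -0.17 and -0.11 in NS and p300 siRNA cells, all with intervals that include 0. Ppp3cb was at 0.21 (limma adjusted p = 0.137) and 0.25 (0.0733). With the experiment as a block it was called in each (0.0350 and 0.0134). Ppp4c, the PP4 catalytic gene, fell by 0.33 (0.00906) and 0.38 (0.00324), which was lost without experiment 2 or 3 (up to 0.140 and 0.0722). Ppp5c, whose product works with the Hsp90 chaperone, was at 0.09 and 0.00. Ppp6c was at -0.33 (0.0966) and -0.25 (0.197), and both were called with the block (4.75e-04 and 0.00365).

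**Figure D2:**
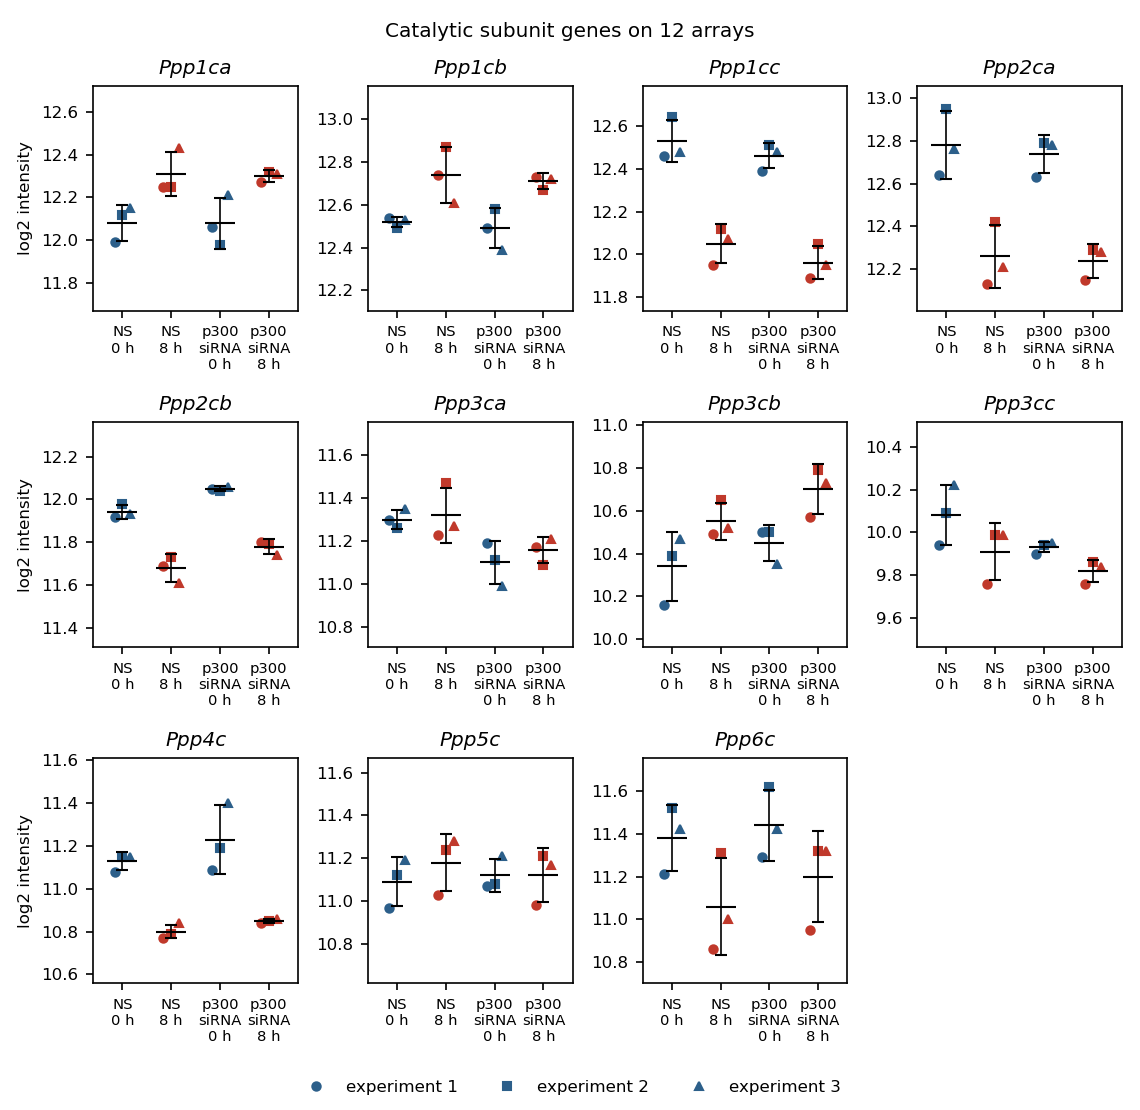
Log2 intensity of the 11 catalytic genes other than the pseudogene on 12 arrays, 1 panel a gene, each panel on its own vertical scale that does not start at 0. Symbols are the 3 experiments, blue 0 h and red 8 h Dox, with the mean and SD of each group; Ppp1cc and Ppp2ca are lower in both Dox groups, and the Ppp3ca groups with and without Dox lie together.

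The B55 genes of PP2A changed in opposite directions, and Ppp2r2c and Ppp2r2b had the 2 largest changes of the 63 genes. B55 subunits direct PP2A to substrates of cyclin-dependent kinases, among others. Ppp2r2c, the gamma form, read 7.82, 8.20 and 8.03 in untreated NS cells and 9.94, 10.17 and 10.09 after Dox. In p300 siRNA cells it read 8.13, 8.09 and 8.07 before and 9.95, 10.10 and 10.07 after. Every Dox array was above every untreated array by more than the whole spread within a group. Ppp2r2c rose by 2.05 (SE 0.0999, 4.14-fold, limma adjusted p = 2.04e-07) in NS cells, the highest change of all 14506 genes, and by 1.94 (3.84-fold, 1.65e-07) with p300 siRNA, where it ranked 2. In the experiments taken singly the rise was 2.12, 1.97 and 2.06 in NS and 1.82, 2.00 and 2.00 in p300 siRNA cells.

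The other 3 B55 genes fell in both kinds of cell. Ppp2r2b, the beta form, read 9.44, 9.80 and 9.81 in untreated NS cells and 8.39, 8.36 and 8.40 after Dox, and 9.53, 9.45 and 9.32 against 8.45, 8.13 and 8.31 with p300 siRNA. The 3 NS arrays after Dox lay within 0.04 of each other, well below the untreated ones. Its fall was 1.30 (SE 0.113, 2.46-fold, limma adjusted p = 6.48e-06) in NS and 1.14 (2.20-fold, 1.42e-05) in p300 siRNA cells.

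Ppp2r2a, the alpha form, is widely expressed. It read 11.27, 11.54 and 11.45 in untreated NS cells and 10.38, 10.58 and 10.45 after Dox, and 11.29, 11.43 and 11.31 against 10.40, 10.37 and 10.38 with p300 siRNA. The groups did not overlap. It fell by 0.95 (SE 0.0852, 1.93-fold, limma adjusted p = 7.99e-06) and 0.96 (1.95-fold, 6.35e-06). Ppp2r2d, the delta form, read 8.70, 9.14 and 9.08 before and 7.98, 8.25 and 8.22 after Dox in NS cells, and 8.71, 8.95 and 8.90 against 8.12, 8.21 and 8.29 with p300 siRNA. Experiment 1 was the lowest in all 4 groups, and the Dox arrays were still all lower than the untreated ones. Ppp2r2d fell by 0.82 (SE 0.122, 1.77-fold, 3.30e-04) and 0.65 (1.57-fold, 0.00143). Calls for all 4 B55 genes held in each of the 22 other settings tried.

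The change of Ppp2r2c minus that of Ppp2r2a was 3.00 in NS cells, from 2.93 to 3.06 over the experiments, and 2.90 (2.71 to 3.07) with p300 siRNA. Against Ppp2r2b it was 3.35 and 3.08, and against Ppp2r2d 2.87 and 2.59. These are differences between changes of different probe sets and do not compare the amounts of the subunits.

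**Figure D3:**
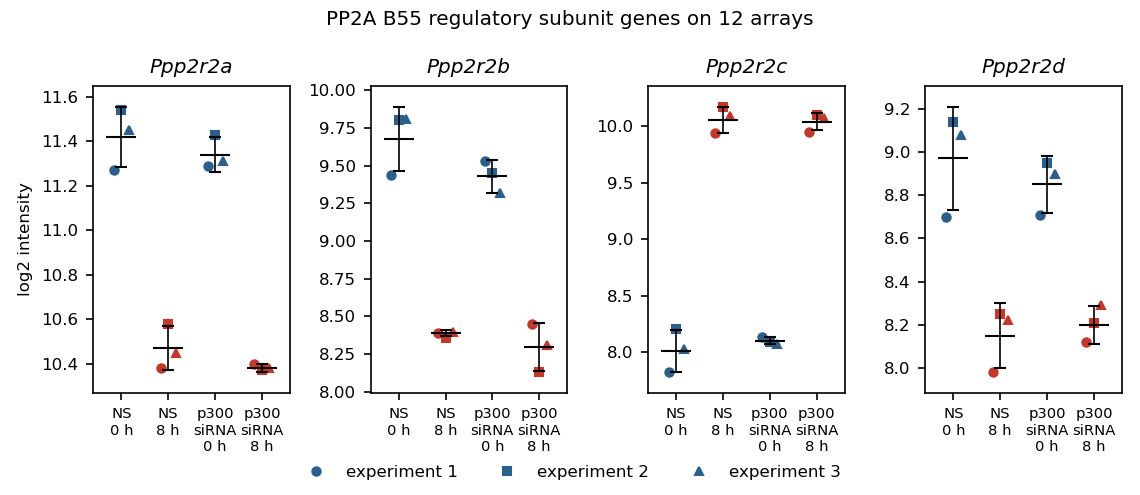
Log2 intensity of the 4 B55 genes on 12 arrays, each panel on its own vertical scale that does not start at 0. Symbols are the 3 experiments, blue 0 h and red 8 h Dox, with the mean and SD of each group. Ppp2r2c goes from a mean of 8.01 to 10.06 in NS cells, and the other 3 genes are lower in both Dox groups.

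Outside the B55 group, 1 of the other 8 PP2A regulatory genes was called with Dox, against 27.5% of all genes in NS cells and 31.4% with p300 siRNA. Ppp2r3a, which encodes a calcium-binding B″ subunit, read 10.75, 10.59 and 10.92 in untreated NS cells and 10.02, 10.25 and 10.24 after Dox, and 10.48, 10.59 and 10.85 against 9.67, 10.13 and 10.11 with p300 siRNA. The groups were apart, although experiment 2 moved less than the others in NS cells. Its fall was 0.58 (SE 0.141, 1.50-fold, limma adjusted p = 0.00834) and 0.67 (1.59-fold, 0.00297), and the NS call was lost without experiment 2 or 3 (up to 0.0677). The scaffold genes Ppp2r1a (-0.02 and -0.07) and Ppp2r1b (-0.16 and -0.14) were not called. Of the B56 genes, 0 of 4 were called. Ppp2r5a was at -0.03 and 0.10 and Ppp2r5b at -0.29 and -0.31, and with the block Ppp2r5b was called in each (0.00612 and 0.00392). In p300 siRNA cells the block also called Ppp2r5d (-0.18, 0.0441), and in NS cells Ppp2r3c (-0.22, 0.0326).

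Glycogen-targeting subunits bring PP1 to glycogen particles, where it activates glycogen synthase. Of the 4 measured genes, 3 fell with Dox in each kind of cell, against 16.4% of all genes in NS cells and 17.5% with p300 siRNA. Ppp1r3b read 9.26, 9.28 and 9.61 in untreated NS cells and 8.29, 8.30 and 8.18 after Dox, and 8.87, 9.15 and 9.19 against 8.05, 7.94 and 8.39 with p300 siRNA. The Dox arrays lay below the untreated ones in both. Ppp1r3b fell by 1.12 (SE 0.133, 2.18-fold, limma adjusted p = 5.65e-05) and 0.95 (1.93-fold, 1.77e-04).

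Ppp1r3a, the striated muscle form, read 8.24, 7.91 and 8.70 in untreated NS cells and 7.27, 7.49 and 7.72 after Dox, and 7.72, 7.97 and 8.19 against 6.97, 7.00 and 7.12 with p300 siRNA. Its spread between experiments was wide, and the times still did not overlap. It fell by 0.79 (SE 0.178, 1.73-fold, limma adjusted p = 0.00547) and 0.93 (1.91-fold, 0.00161).

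Ppp1r3d read 10.80, 10.92 and 11.18 before and 10.17, 10.22 and 10.60 after Dox in NS cells, and 10.66, 10.97 and 11.16 against 9.97, 10.53 and 10.58 with p300 siRNA. The experiments kept the same order in every group, with experiment 1 the lowest, and within each experiment the Dox array was the lower. The fall was 0.64 (SE 0.181, 1.55-fold, limma adjusted p = 0.0195) and 0.57 (1.49-fold, 0.0292). The NS call was lost without experiment 2 (0.189) or any 1 of NS 0 h array 3, NS 8 h array 1 and NS 8 h array 2. The p300 siRNA call was lost without experiment 2 (0.156) or 3, p300 siRNA 0 h array 2 or 3, or p300 siRNA 8 h array 1, with arrays centred (0.0520) and with those 2 groups fitted alone (0.0513). Ppp1r3e was at -0.04 and 0.07 and was not called, and its sign in NS cells turned with arrays centred. The change of Ppp1r3b minus that of Ppp1r3e was -1.08 in NS cells (-1.53 to -0.79) and -1.01 (-1.32 to -0.85) with p300 siRNA.

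**Figure D4:**
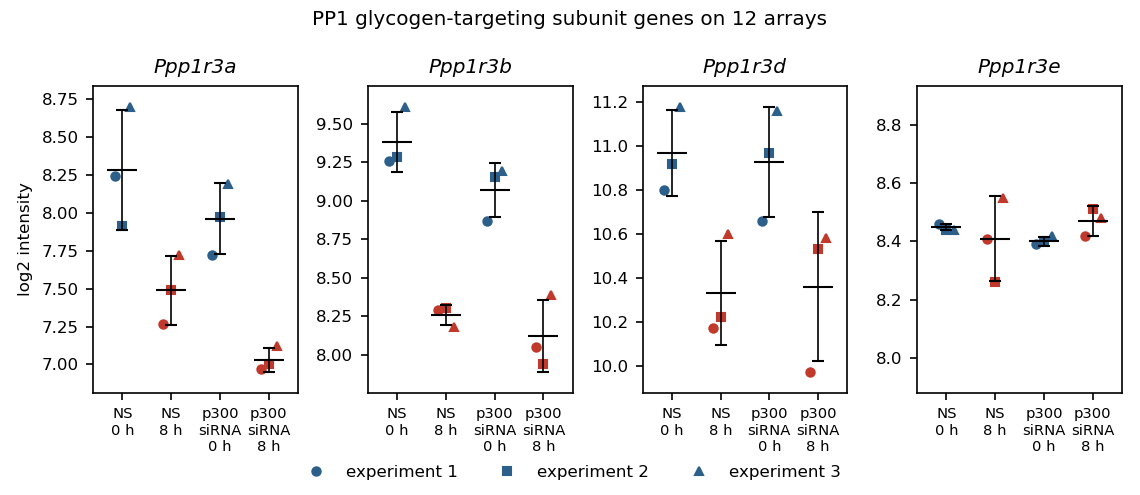
Log2 intensity of the 4 glycogen-targeting genes of PP1 on 12 arrays, each panel on its own vertical scale that does not start at 0. Symbols are the 3 experiments, blue 0 h and red 8 h Dox, with the mean and SD of each group. Ppp1r3a, Ppp1r3b and Ppp1r3d are lower after Dox in every experiment, and Ppp1r3e moved by -0.04 and 0.07.

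Of 10 genes of PP1 inhibitors, 2 rose and 0 fell with Dox in NS cells (11.1% of all genes rose and 16.4% fell), and 2 rose and 1 fell with p300 siRNA (13.9% and 17.5%). Ppp1r2, inhibitor-2, read 10.69, 10.96 and 10.90 in untreated NS cells and 11.31, 11.55 and 11.37 after Dox, and 10.82, 10.99 and 10.81 against 11.36, 11.58 and 11.46 with p300 siRNA. All 6 Dox arrays were above all 6 untreated ones. Ppp1r2 rose by 0.56 (SE 0.0972, 1.48-fold, limma adjusted p = 9.74e-04) and 0.59 (1.51-fold, 5.65e-04).

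Ppp1r1a encodes inhibitor-1, which restrains PP1 once protein kinase A has phosphorylated it. It rose by 0.54 (limma adjusted p = 0.0486) in NS cells and was at 0.47 (0.0755) with p300 siRNA. The NS call was lost in 9 of the 15 leave-out fits (up to 0.230), and the p300 siRNA change was called with the block (1.11e-04). Ppp1r14b, a phosphorylation-dependent inhibitor, was at 0.21 (0.0621, or 0.0126 with the block) in NS cells and rose by 0.23 (0.0385) with p300 siRNA. That call was lost in 8 leave-out fits (up to 0.269), and its second probe set changed by 0.11. With the mean of its probe sets it was not called (0.0942). Ppp1r11, inhibitor-3, was at -0.06 in NS cells and fell by 0.30 (0.0428) with p300 siRNA, a call lost in 10 leave-out fits (up to 0.405) and with arrays centred (0.136). Inhibitor genes called in neither Dox comparison included Ppp1r14a, Ppp1r14d and Ppp1r17. Ppp1r14c was also called in neither (0.39 with p300 siRNA, 0.200), and with the block it was called there (8.05e-04).

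Among the remaining PP1 partners, the called genes of the Ppp1r15, Ppp1r12, Ppp1r16, Ppp1r13 and Ppp1r9 symbols fell. The other PP1 genes went both ways. Ppp1r15b encodes the constitutive subunit that sends PP1 to phosphorylated eIF2α, a translation initiation factor. It read 10.17, 10.29 and 10.14 in untreated NS cells and 9.60, 9.80 and 9.43 after Dox, and 10.10, 10.24 and 10.21 against 9.83, 9.63 and 9.72 with p300 siRNA. The groups did not overlap. It fell by 0.59 (SE 0.100, 1.51-fold, limma adjusted p = 8.37e-04) and 0.46 (1.38-fold, 0.00366), the latter lost without experiment 2 (0.0551). Its stress-inducible relative Ppp1r15a was at 0.03 and -0.06 and was not called.

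Myosin-targeting subunits join PP1 to myosin light chains. Ppp1r12b, the form of striated muscle, fell by 0.55 (limma adjusted p = 0.00766) and 0.47 (0.0148), lost without experiment 3 in each (0.135 and 0.120) and in p300 siRNA cells also without their 8 h array 2. Ppp1r12a was at -0.29 and -0.25, and was called only with the block (5.38e-04 and 0.00168). Ppp1r16a was at -0.15 in NS cells and fell by 0.30 (0.0117) with p300 siRNA, lost without p300 siRNA 0 h array 3 and without experiment 2 or 3 (up to 0.135), with arrays centred (0.0625) and with the further quantile normalization (0.113). Ppp1r13b, a partner of p53 in the ASPP family, fell by 0.49 (0.00259) and 0.31 (0.0302). Without experiment 2 or 3 neither was called (up to 0.0754 and 0.325), and the p300 siRNA call was lost in 6 leave-out fits in all, with arrays centred (0.113) and with the further quantile normalization (0.133). Ppp1r9b, which encodes the actin-binding scaffold spinophilin, fell by 0.35 (0.00421) and 0.32 (0.00585), and its relative Ppp1r9a was not called. The Ppp1r9b calls were lost without experiment 2 or 3 (up to 0.0943 and 0.0760).

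Of the 8 other PP1 genes, 2 rose and 1 fell in each kind of cell. Among all genes 11.1% rose and 16.4% fell in NS cells, and 13.9% and 17.5% with p300 siRNA. Ppp1r7, a regulator that binds newly made PP1, rose by 0.33 (limma adjusted p = 0.00968) and 0.42 (0.00166). Its NS call was lost without experiment 1 or 3 (up to 0.0545). Ppp1r8, a nuclear inhibitor and splicing-associated subunit, fell by 0.36 (0.00978) and 0.42 (0.00330), lost without experiment 2 or 3 (up to 0.142 and 0.0832). Ppp1r42, a gene among the dimmest 25%, rose by 0.20 (0.0457) in NS cells and was at 0.12 with p300 siRNA. Its call was lost in 13 leave-out fits (up to 0.196). Ppp1r27 was at 0.05 in NS cells and rose by 0.24 (0.0177) with p300 siRNA, lost in 5 leave-out fits (up to 0.177). Ppp1r10, a nuclear targeting subunit, was at -0.29 in NS cells (0.0613, or 0.0184 with the block). Ppp1r18 was at -0.28 and -0.27, called only with the block (0.00688 and 0.00778), and Ppp1r35 and Ppp1r37 were not called.

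A gene of calcineurin B, the calcium-binding regulatory subunit, was the only calcineurin gene called in the model without a block. With the block, and also with arrays centred, 2 of the 5 calcineurin genes were called up in each kind of cell. Over all genes the block called 21.6% up in NS cells and 22.9% with p300 siRNA. With arrays centred, 3800 and 4344 of 14506 genes were called up. Ppp3r1 rose by 0.26 (limma adjusted p = 0.0441) in NS and 0.34 (0.00989) in p300 siRNA cells. The NS call was lost in 11 leave-out fits (up to 0.198) and with the mean of its probe sets (0.130), and the p300 siRNA call without experiment 2 or 3 (up to 0.158). Its dimmer probe set changed by 0.10 and 0.42. Ppp3r2 was not called and lay among the dimmest 25%.

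PP4 and its regulatory subunits act in DNA repair, among other processes, and 3 of the 4 regulatory genes fell in each kind of cell. Among all genes 16.4% fell in NS cells and 17.5% with p300 siRNA. Ppp4r3a read 10.29, 10.18 and 10.26 in untreated NS cells and 9.58, 9.54 and 9.29 after Dox, and 10.30, 10.30 and 10.15 against 9.75, 9.30 and 9.57 with p300 siRNA. The groups were well apart. Ppp4r3a fell by 0.77 (SE 0.116, 1.71-fold, limma adjusted p = 3.65e-04) and 0.71 (1.63-fold, 5.47e-04).

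Ppp4r2 fell by 0.41 (limma adjusted p = 0.0170) and 0.43 (0.0114). In NS cells the call was lost in 5 leave-out fits (up to 0.230), and with p300 siRNA without the 8 h array 2 or without experiment 2 (up to 0.101). Ppp4r1 fell by 0.25 (0.0371) in NS cells, a call lost in 9 leave-out fits (up to 0.237), with arrays centred (0.148) and with the 2 groups alone (0.0865). It was at -0.17 with p300 siRNA (0.135, or 0.0274 with the block). Ppp4r3b was at -0.37 in NS cells (0.205, or 0.0177 with the block). It fell by 0.58 (0.0437) with p300 siRNA, where its arrays of the 2 times overlapped and the call was lost in 10 leave-out fits (up to 0.318), with arrays centred (0.0687), with the further quantile normalization (0.0955) and with the 2 groups alone (0.0820).

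PP6 is built on subunits with a SAPS domain. Ppp6r3 read 10.98, 10.94 and 11.01 in untreated NS cells and 10.33, 10.40 and 10.23 after Dox, and 10.76, 10.92 and 10.86 against 10.45, 10.35 and 10.43 with p300 siRNA. The arrays of the 2 times were apart in both. It fell by 0.66 (SE 0.0752, 1.58-fold, limma adjusted p = 4.65e-05) and 0.44 (1.35-fold, 7.74e-04). Ppp6r1 fell by 0.20 (0.0366) and 0.25 (0.00942). Its NS call was lost in 10 leave-out fits (up to 0.283), its p300 siRNA call without experiment 2 or 3 (up to 0.134), and both with arrays centred (0.269 and 0.0933). Ppp6r2 was at 0.06 and -0.04.

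Marker genes of other cell types were followed beside the Dox results. With Dox, 0 of 10 myocyte markers were called in either kind of cell, or 1 up in NS cells and 2 up and 1 down with p300 siRNA with the block. Of the other lists, 2 of 7 endothelial and 2 of 8 smooth muscle and pericyte markers fell in each. Over all genes 11.1% rose and 16.4% fell in NS cells, and 13.9% and 17.5% with p300 siRNA. With the block these shares were 21.6% and 21.9%, and 22.9% and 22.8%. The summed endothelial markers went from 10.64 to 10.71 before Dox to 10.30 to 10.46 after it in NS cells. For fibroblasts 1 of 10 fell in each kind of cell and 1 rose with p300 siRNA; for leukocytes 1 of 8 fell in NS cells, and 2 fell and 1 rose with p300 siRNA. With the block the endothelial calls were 1 up and 4 down in NS cells and 3 down with p300 siRNA, those of smooth muscle 3 up and 2 down, and 3 up and 3 down. Fibroblast calls were then 2 down, and 3 up and 2 down, and leukocyte calls 1 up and 1 down, and 3 up and 2 down. Their part in the members' changes was not tested.

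p300 siRNA left no member called. At 0 h the count was 0 of 63 (0.0207% of all genes called), at 8 h 0 of 63 (0.0483%), and averaged over both times 0 of 63 (1.25%), by limma at an adjusted p under 0.05. At an unadjusted p under 0.05 there were 4, 1 and 8 members, against 6.95%, 7.96% and 12.7% of all genes. NS and p300 siRNA arrays did not overlap for 11 members at 0 h (17.5%, against 13.0% of all genes) and for 7 at 8 h (11.1%, against 11.1%). The averaged changes ran from -0.39 to 0.18, and their 95% intervals from -0.67 to 0.35. A change as large as the Dox responses of Ppp2r2c, Ppp2r2b or Ppp2r2a lay outside the intervals of all 63.

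With the experiment as a block, 3 members were called lower on average (6.29% of all genes), 1 at 0 h (1.99%) and 1 at 8 h (2.37%). Ppp1r3a, described above, was lower in p300 siRNA than in NS cells by 0.41, 0.22 and 0.56 in experiments 1 to 3, averaged over both times. At 0 h in experiment 2 it was the higher with p300 siRNA (7.97 against 7.91). Its averaged change was -0.39 (limma adjusted p = 0.181, or 0.00572 with the block) and its change at 8 h -0.46 (0.498, or 0.0391), where the 3 arrays of p300 siRNA lay below the 3 of NS. Ppp1r14c, an inhibitor of PP1 activated by protein kinase C, read 8.96, 9.14 and 9.65 in NS and 8.59, 8.86 and 9.01 in p300 siRNA cells at 0 h, and 9.15, 9.42 and 9.75 against 8.82, 9.23 and 9.59 at 8 h. The groups overlapped at both times, and p300 siRNA was the lower within every experiment. Its change was -0.43 at 0 h (0.772, or 0.00848 with the block) and -0.33 on average (0.408, or 0.00207).

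Ppp3ca, the alpha catalytic gene of calcineurin, read 11.30, 11.26 and 11.35 in NS and 11.19, 11.11 and 10.99 in p300 siRNA cells at 0 h, and 11.23, 11.47 and 11.27 against 11.17, 11.09 and 11.21 at 8 h. The p300 siRNA arrays were the lower at both times, without overlap. The averaged change was -0.19 (limma adjusted p = 0.160, or 0.0309 with the block). Beside these values, leukocyte markers were lower with p300 siRNA: 3 of 8 were called on average (7 with the block), with a median change of -0.34. Their summed level was 13.11 to 13.40 in NS and 12.54 to 13.17 in p300 siRNA cells at 0 h, and 13.06 to 13.44 and 12.74 to 13.13 at 8 h. Fibroblast markers had a median of -0.17, with 0 of 10 called and 5 down with the block. Smooth muscle and pericyte markers had a median of -0.01, with 1 of 8 called lower, or 1 up and 2 down with the block. Endothelial markers had a median of -0.11, with 0 of 7 called and 1 down with the block. Of 10 myocyte markers (median -0.06) 0 were called either way. Over all genes 1.02% were called lower on average, or 6.29% with the block. The part of these markers in the members' values was not tested.

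The response to Dox was compared between the 2 siRNAs by the interaction, the change with Dox in p300 siRNA cells minus that in NS cells. It was called for 0 of 63 members (0.0% of all genes called by limma, with or without the block). At an unadjusted p under 0.05 there were 0 members, against 1.57% of all genes. Over the 63 genes it ran from -0.24 for Ppp1r11 to 0.22 for Ppp6r3, whose 95% interval was -0.01 to 0.45. The intervals of all members lay between -0.84 and 0.87, and the median half-width was 0.288. The genes called in NS cells alone (3) or in p300 siRNA cells alone (5) are therefore not shown to respond differently. The median size of the interaction was 0.0740 in the members and 0.0767 over all genes.

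Genes that act with these subunits but carry other symbols were read from 5 lists, whose counts stand beside 11.1% of all genes up and 16.4% down in NS cells and 13.9% and 17.5% with p300 siRNA. Counts with the block stand beside 21.6% of all genes up and 21.9% down in NS cells, and 22.9% and 22.8% with p300 siRNA. Of 21 measured genes of calcineurin and NFAT signalling, 3 rose and 9 fell with Dox in NS cells and 6 rose and 9 fell with p300 siRNA (medians -0.11 and -0.15), or 6 and 10, and 8 and 11, with the block. Rcan1, an inhibitor and transcriptional target of calcineurin, fell by 1.89 in NS (limma adjusted p = 1.18e-06) and 1.99 in p300 siRNA cells. Nfatc3, a substrate, fell by 0.76 and 0.93, Rcan3 by 0.78 and 0.65, and Dyrk1a, a kinase of NFAT, by 0.65 in each. Fkbp1b, which binds the ryanodine receptor, rose by 0.56 and 0.75, and Cib1 by 0.41 and 0.45. In NS cells the calls of Fkbp1b and Cib1 were lost without experiment 2 or 3 (limma adjusted p up to 0.124 and 0.0876), and with p300 siRNA without experiment 2 (0.0782 and 0.0512). Nfatc4 (-0.17 and -0.21) and Rcan2 (-0.08 and -0.15) were not called. With the block Nfatc4 was called lower in each (0.0484 and 0.0205) and Rcan2 with p300 siRNA (0.0333).

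PP2A partners split, with 4 up and 5 down of 14 in NS cells and 6 and 5 with p300 siRNA (medians 0.03 and 0.08), or 6 and 6, and 6 and 5, with the block. The striatins, which form their own PP2A complexes, fell: Strn3 by 0.76 and 0.83, and Strn by 0.65 and 0.61. Ensa and Arpp19 encode related inhibitors of PP2A with B55, and they changed in opposite directions, Ensa by -0.76 and -0.66 and Arpp19 by 0.40 and 0.60. Mastl, the kinase that activates both, rose by 0.43 and 0.51. Igbp1, a chaperone of the catalytic subunit, rose by 0.53 and 0.65, and Ptpa (0.08 and 0.05) was not called. In NS cells calls were lost without experiment 2 for Arpp19 (limma adjusted p = 0.0681), Mastl (0.0969) and Igbp1 (0.198), and without experiment 3 for Ensa (0.0714) and Igbp1 (0.0808). The Mastl call was also lost without experiment 1, NS 0 h array 3 or NS 8 h array 2, and that of Igbp1 without NS 0 h array 1 or 2, or NS 8 h array 2 or 3. With p300 siRNA they were lost without experiment 2 or 3 for Ensa (up to 0.134) and Igbp1 (up to 0.0873), and without experiment 3 for Mastl (0.0529).

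PP1 partners without a Ppp1r symbol gave 0 rises and 9 falls of 16 in NS cells and 0 and 10 with p300 siRNA (medians -0.42 and -0.46), or 1 and 9, and 0 and 11, with the block. Wbp11, which is associated with splicing, fell by 0.86 and 0.95, the mitotic kinase gene Nek2 by 0.81 and 0.79, and Phactr2 by 0.67 and 0.48. Nek2 was not called in NS cells without experiment 2 (limma adjusted p = 0.0543), and Phactr2 was not called with p300 siRNA in 6 leave-out fits (up to 0.168) or with arrays centred (0.0590). Pln, phospholamban, whose dephosphorylation by PP1 slows calcium uptake in the myocyte, was at -0.10 and -0.15 and was not called, except with the block in p300 siRNA cells (0.0136). Of 19 other serine/threonine phosphatases 2 rose and 5 fell in NS cells, and 3 and 5 with p300 siRNA (medians 0.04 and 0.03), or 4 and 5, and 6 and 5, with the block. The Akt phosphatase gene Phlpp2 fell by 0.85 and 0.95, Phlpp1 by 0.69 and 0.41, and Ppm1d, known as a target and brake of p53, by 0.61 and 0.64. Ppm1n rose by 0.46 and 0.41 and Ppm1j by 0.45 and 0.62. Without experiment 2 the calls of Ppm1j in NS cells (limma adjusted p = 0.130) and of Phlpp1 (0.0705) and Ppm1n (0.0773) with p300 siRNA were lost, and without experiment 3 those of Ppm1n in NS cells (0.0606) and Phlpp1 with p300 siRNA (0.0751). Of 5 partners of PP4, PP5 and PP6, 1 rose and 1 fell in NS cells and 2 and 1 with p300 siRNA (medians 0.13 and 0.17), or 2 and 2, and 3 and 1, with the block. With p300 siRNA against NS, 0 genes of the 5 lists were called by limma at 0 h, at 8 h or on average. With the block, 3 genes of the calcineurin list were called higher and 2 lower on average (1 and 1 at 8 h), with Fkbp1b at 0.45 (limma adjusted p = 0.00369) and Akap6 at -0.29 (0.00513). Of the other phosphatases 2 were then lower on average and 1 at 8 h, with Ppef1 at -0.67 (0.00470). Of all 14506 genes the block called 468 higher and 912 lower on average, and 111 and 344 at 8 h.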

How the data were processed

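Total RNA of 12 cultures, 3 per group, was hybridised to Affymetrix whole-transcript arrays. The deposited values are intensity on a linear scale (8.05 to 25315), made by the authors with Affymetrix Expression Console 1.1 and RMA, per the submitters' processing notes; log2 was taken here. How they became linear is not given in the sources used here. Of 29214 probe sets 15310 had 1 gene symbol in the platform annotation, 323 several and 13581 none; only the first were used, the brightest over all arrays for 527 genes with more than 1. No filter on level was applied. Precision is set by the 3 arrays a group: a difference between 2 groups had a median SE of 0.0951 on the log2 scale.

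A model of 4 group means was fitted with limma 3.58.1 (R 4.3.3; lmFit, eBayes with a trend, two-sided, Benjamini-Hochberg over 14506 genes), and tested on simulated data. Arrays with the same replicate number deviated together from their group means (18 pairs, median r 0.504, from 0.172 to 0.689, against -0.271 for other pairs; 12 of 12 arrays closest to their own number), so the number is called the experiment, following the 3 experiments of the design text. The model has no block; the blocked p is given where it changes a call. Nothing states separate animals for each culture within an experiment. Named were Ep300, all catalytic genes, all called members (values on every array for the 12 largest Dox changes), up to 3 uncalled members a class, and the largest calls of 5 partner lists. Members and list genes called only with the block were named after their values were seen. The members and lists were chosen with earlier results of these data known. Promoters are RefSeq's (GRCr8). Figures used Python 3.11.15 and matplotlib 3.10.9.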

Additional observations from a re-analysis of the deposited data

How the results depend on the processing

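Every called member change kept its direction under the 22 other settings, except that the dim Ppp1cb-ps7 and Ppp1r42 have no value where dim genes were left out; of the 64 Dox changes that were not called, 18 changed sign in at least 1 setting, most often with arrays centred (10). Of the 30 and 32 calls with Dox in NS and p300 siRNA cells, 13 in each held in all 15 fits without an array or an experiment, and also in the other settings that gave them a value. The counts moved most when an array or an experiment was left out: rises in NS cells ran from 4 to 9 and falls from 11 to 22, and with p300 siRNA rises ran from 3 to 10 and falls from 11 to 26. Fitting only the 2 groups compared gave 5 rises in NS cells, and centring the arrays gave 14 rises with p300 siRNA. With the replicate block (experiment), members lower with p300 siRNA went from 0 to 1 at 0 h, 1 at 8 h and 3 on average; the block changed no call for the interaction. The cause of these shifts was not tested. A further quantile normalization ended 4 member calls in NS and 8 in p300 siRNA cells. Over all genes the block raised the share called from 27.5% to 43.5% with Dox in NS cells and from 31.4% to 45.8% in p300 siRNA cells. Of the members, 6 were among the dimmest 25% of genes. With 3 arrays a group an exact permutation test of 1 gene cannot go below 0.1.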
